A study of Homo sapiens with 24 samples.

Results

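The genes of respiratory complex I were examined in SW1783 cells, a human astrocytoma line, after treatment with extracts of Schisandrae Fructus. They were taken by name from the deposited expression table as protein-coding genes whose symbol starts with NDUF or MT-ND. This gave 55 genes of the 19586 protein-coding genes in the table. They comprise 7 mitochondrially encoded subunits (MT-ND), 7 nuclear core subunits, 30 nuclear accessory subunits and 8 NDUFAF assembly factors, 52 genes in all. The other 3 name matches are NDUFA4, NDUFA4L2 and the readthrough gene NDUFC2-KCTD14, which are not subunits of complex I and are given apart.

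Complex I (NADH:ubiquinone oxidoreductase) takes electrons from NADH in the mitochondrial matrix, passes them along iron-sulphur clusters to ubiquinone and pumps protons across the inner membrane. The core subunits carry this chemistry. The nuclear core subunits form the matrix arm (the N module, which oxidises NADH, and the Q module, which reduces ubiquinone), and the MT-ND subunits form the membrane arm. Accessory subunits surround the core and are needed for assembly and stability, and assembly factors help to build the complex but are absent from the finished enzyme.

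Cells were treated for 24 h with WESF, a hot water extract, at 20, 100 or 500 µg/mL (low, medium and high dose), or with EESF, a 70% ethanol extract, at 12.4, 62 or 310 µg/mL. Each extract was run in its own batch with its own vehicle of PBS with 0.1% DMSO (vehicle A for WESF, vehicle B for EESF), so the extract, its dose in µg/mL and the batch cannot be told apart. In the paper's preliminary cytotoxicity screening the WESF high dose was not toxic. The EESF high dose lay at its IC20, the concentration for 20% inhibition, so the high doses also differed in toxicity. Each of the 8 groups had 3 libraries, 24 in all, with total expected counts of 18727797 to 32567395 per library. Depth went with treatment at the high doses, in opposite directions in the batches. Totals were 26447834 to 28461841 in vehicle A and 20731749 to 24692309 at the WESF high dose. In vehicle B they were 18727797 to 20465712, and at the EESF high dose 29659110 to 32567395. Counts thinned to the shallowest library were among the alternatives. Nothing states that the 3 libraries of a group came from separate cultures, so p-values measure the spread between these libraries, which may be technical.

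Of the markers of the labelled cell type, VIM (at least 4531 CPM, the normalised count scaled to library size) and CD44 (at least 1704 CPM) were abundant in all 24 libraries. CD44 averaged 2836 CPM in vehicle A and 1722 CPM at the WESF high dose, and 2896 CPM in vehicle B and 2077 CPM at the EESF high dose. NES averaged 7.29, 3.17, 6.74 and 4.93 CPM in the same groups, and VIM 4821, 4796, 4922 and 5279 CPM. The 10 glial and progenitor markers, led by VIM, summed to 7622 to 7759 CPM in vehicle A and 6436 to 6677 CPM at the WESF high dose, and to 7757 to 7919 CPM in vehicle B and 7224 to 7465 CPM at the EESF high dose. The astrocyte markers GFAP, S100B, AQP4, ALDH1L1 and FABP7 stayed at or below 0.339 CPM in every library. SLC1A3, an astrocytic glutamate transporter, averaged 31.8 CPM in vehicle A and 10.4 CPM at the WESF high dose, and 31.8 CPM in vehicle B and 12.1 CPM at the EESF high dose. The defining markers of oligodendrocytes, MOG and SOX10, were listed at 0 in 24 libraries, and the microglial AIF1 and P2RY12 in 23. The 5 neuron markers summed to 156 to 160 CPM in vehicle A and 77.0 to 85.4 CPM at the WESF high dose, and to 156 to 165 CPM in vehicle B and 98.2 to 107 CPM at the EESF high dose. TUBB3 was the most abundant of these. The 5 microglia and leukocyte markers, of which CD68 was the most abundant, summed to 186 to 197 CPM in vehicle A, 207 to 238 CPM at the WESF high dose, 198 to 222 CPM in vehicle B and 267 to 276 CPM at the EESF high dose. The sum follows CD68, and PTPRC, the leukocyte marker on this list, went the other way, from a mean of 10.2 CPM in vehicle A to 2.12 CPM at the WESF high dose and from 9.81 CPM in vehicle B to 1.88 CPM at the EESF high dose. The oligodendrocyte list, nearly all MBP, summed to 6.74 to 7.67 CPM in vehicle A and 11.4 to 14.1 CPM at the WESF high dose, and to 6.55 to 7.32 CPM in vehicle B and 9.65 to 10.2 CPM at the EESF high dose. The endothelial list, nearly all KDR, lay between 32.1 and 43.9 CPM in the vehicle and high-dose libraries. The part of these shifts in the complex I results was not tested.

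At the WESF high dose complex I mRNAs were mostly lower than in vehicle A. Of the 52 genes 27 fell and 4 rose at an adjusted p under 0.05 (edgeR quasi-likelihood test, Benjamini-Hochberg adjustment over 13129 genes), against 34.6% and 34.3% of all genes tested. Their median log2 fold change was -0.18, beside 8.23e-04 for all genes. A DEG, which here means a gene that also changed beyond 1.5-fold, was rarer: 3 of the 52 genes (MT-ND1, MT-ND2 and NDUFAF6, all lower) against 24.1% of all genes. All 3 WESF libraries lay below all 3 vehicle libraries in 25 of the 52 genes and above them in 6, while 35.6% and 35.9% of all genes did so.

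At the EESF high dose the genes were split. Of the 52, 10 rose and 11 fell, against 29.3% and 28.7% of the 13092 genes tested, and the median was -0.02, beside 0.01 for all genes. NDUFAF2, higher, was the DEG among them, where 17.4% of all genes were DEGs. The EESF libraries lay wholly below vehicle B in 11 genes and wholly above it in 8, against 31.2% and 31.6% of all genes. The share of falling genes at the WESF high dose was thus above that among all genes, and the shares at the EESF high dose were below it.

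**Figure D1:**
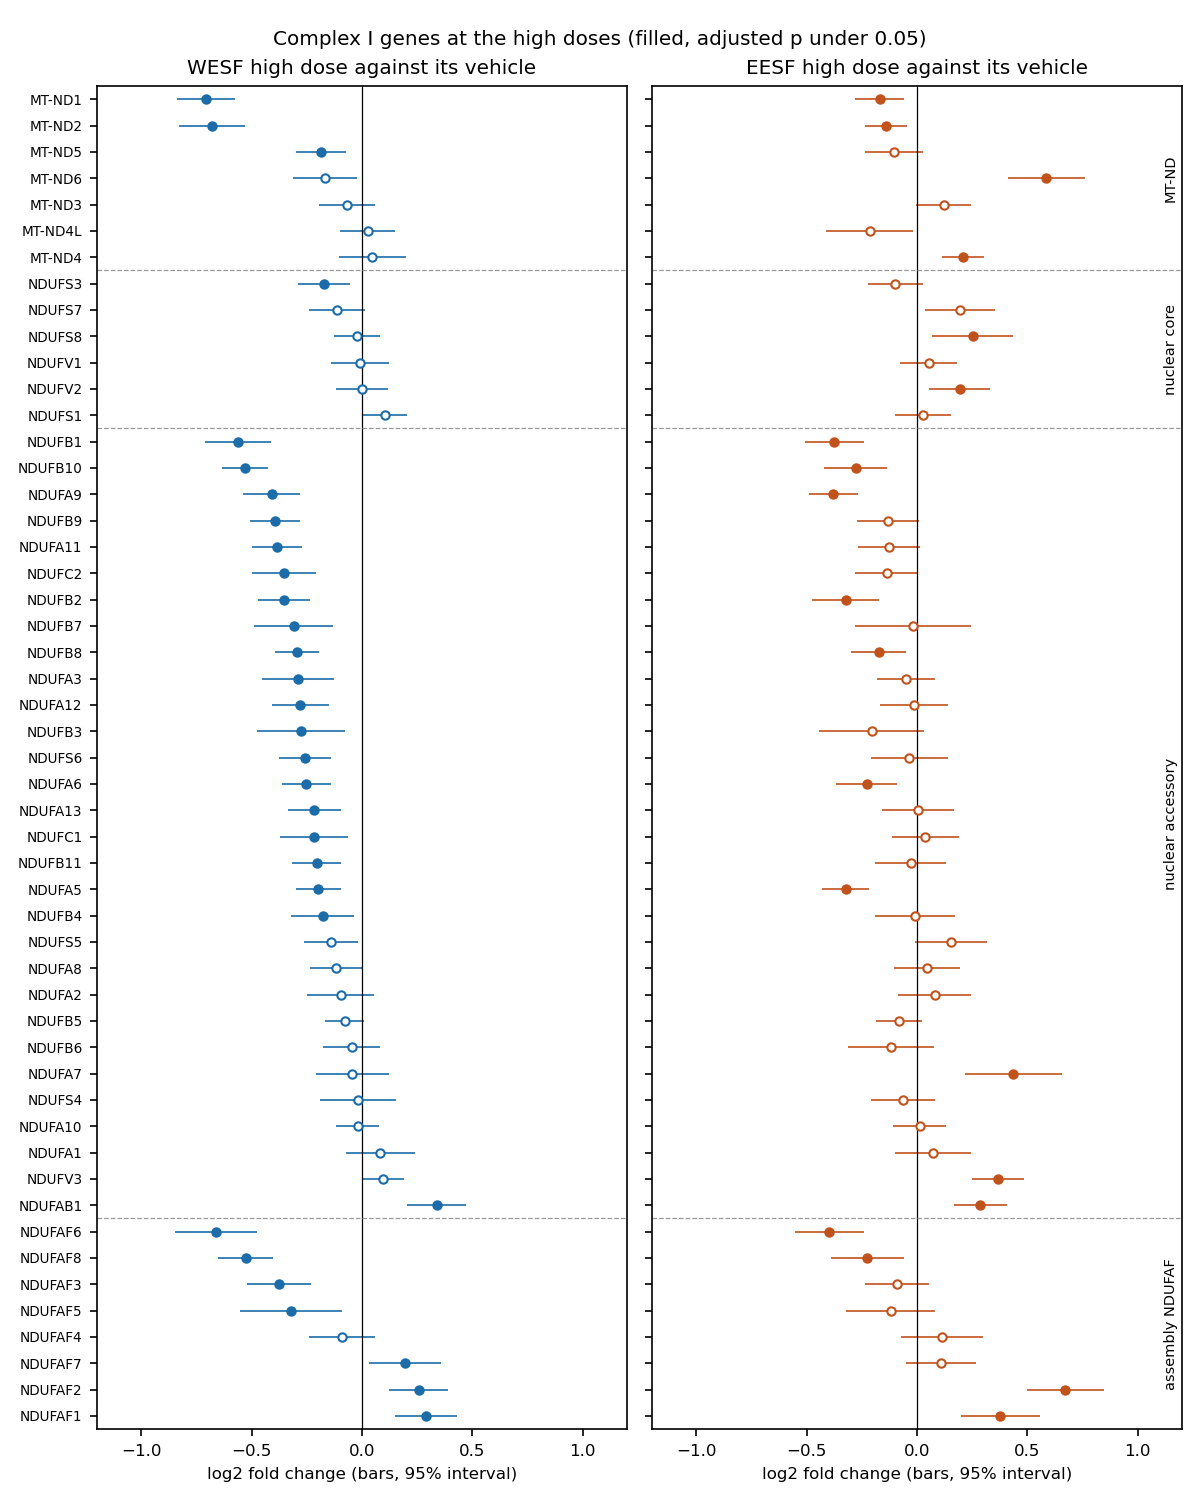
Log2 fold change of the complex I genes reported singly at the high dose of WESF (left) and EESF (right) against the vehicle of its batch. Points are fitted values from 3 against 3 libraries, bars are 95% intervals, filled points passed the test, and dashed lines part the 4 classes. At the WESF high dose 19 of the 30 accessory subunits fell, beside 34.6% of all genes.

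The 7 MT-ND mRNAs did not move together. They are cut from long transcripts of the mitochondrial genome, MT-ND6 from the strand opposite to the other six. MT-ND1 (chrM:3307-4262), a membrane subunit beside the ubiquinone site, had 6612, 6437 and 7144 CPM in vehicle A and 4624, 3686 and 4076 CPM at the WESF high dose. The groups were well apart, and MT-ND1 fell by 0.71 ± 0.07 on the log2 scale (SE, adjusted p = 7.51e-08), a decrease of 38.7%. MT-ND2 (chrM:4470-5511), a proton-pumping subunit, had 6462, 6295 and 6751 CPM in vehicle A and 4733, 3516 and 3939 CPM at the WESF high dose. It too showed no overlap, and fell by 0.68 ± 0.08 (adjusted p = 5.55e-07). MT-ND5, the pumping subunit at the tip of the membrane arm, fell by 0.19 ± 0.06 (adjusted p = 0.00957). MT-ND3, MT-ND4 and MT-ND4L overlapped vehicle A, with log2 fold changes of -0.07, 0.05 and 0.03. These 3 values moved with single libraries. Without WESF high replicate 1 MT-ND3 was at -0.17 and passed (adjusted p = 0.00902), and without WESF high replicate 2 it was at 0.00447. MT-ND4 ran from -0.09 to 0.13 and MT-ND4L from -0.07 to 0.10 without passing. MT-ND6 was at -0.17 ± 0.07 with an adjusted p of 0.0507, and it lay between -0.26 and -0.06 when single libraries were left out. It passed in 6 of 14 alternatives, among them DESeq2 size factors (0.0482), no filter on low counts (0.0255), thinned counts (0.0476) and without vehicle A replicate 3 (0.0303) or WESF high replicate 1 (0.00835).

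The pattern was different at the EESF high dose. MT-ND6 (chrM:14149-14673), a small membrane subunit, had 1205, 1055 and 997 CPM in vehicle B and 1395, 1703 and 1784 CPM after EESF. All EESF libraries were above all vehicle libraries, and MT-ND6 rose by 0.58 ± 0.09 on the log2 scale (adjusted p = 1.27e-04), which is 49.9%. MT-ND4, a pumping subunit, rose by 0.21 ± 0.05 (adjusted p = 0.00261). MT-ND1 and MT-ND2 fell by 0.17 ± 0.06 and 0.14 ± 0.05 (adjusted p = 0.0224 and 0.0247). Both calls ended with all groups of the batch in the fit (adjusted p = 0.11 and 0.187). The call of MT-ND1 also ended without vehicle B replicate 3 (adjusted p = 0.0806) or EESF high replicate 3 (0.0562), and that of MT-ND2 without vehicle B replicate 3 (0.0793) or EESF high replicate 2 (0.0619). MT-ND3, MT-ND5 and MT-ND4L did not pass, with log2 fold changes of 0.12, -0.10 and -0.22. Without EESF high replicate 1, MT-ND5 was at -0.18 and passed (adjusted p = 0.00558), and MT-ND3 was at 0.05. Whether the counting used strand is not given in the sources used here, so reads of MT-ND6 and of transcripts from the other strand at the same place may not be told apart.

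Ratios within a library do not depend on how libraries are scaled to each other. The ratio of MT-ND1 to MT-ND4 counts was 0.444 to 0.474 in the 3 vehicle A libraries, 0.430 to 0.442 at the low dose, 0.406 to 0.438 at the medium dose and 0.261 to 0.288 at the high dose of WESF. The high-dose libraries were below all others. In batch B the ratio was 0.422 to 0.482 in vehicle B, 0.429 to 0.454 at the low dose, 0.408 to 0.453 at the medium dose and 0.341 to 0.366 at the high dose of EESF, again the lowest of the batch. The ratio of MT-ND4L to MT-ND4 went from 0.0842 to 0.0881 in vehicle B to 0.0743 to 0.0772 at the EESF low dose, 0.0557 to 0.0668 at the medium dose and 0.0531 to 0.0751 at the high dose. None of the 9 EESF libraries reached the vehicle B range. In batch A it was 0.0977 to 0.101 in vehicle A, 0.0852, 0.0893 and 0.108 at the WESF low dose, 0.0863 to 0.0925 at the medium dose and 0.0939, 0.109 and 0.0931 at the high dose. The medium-dose libraries lay below all of vehicle A, while at the low and high doses 2 of 3 libraries lay below and 1 above.

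MT-ND4L and MT-ND4 are translated from the same mRNA, and their reading frames overlap. The stretch that joins them is shown because a read across it belongs to both genes, and RSEM divides such reads. It is chrM:10720-10806 (GRCh38, plus strand), with the 7 shared bases at 10760 to 10766 in capitals.
MT-ND4L and MT-ND4: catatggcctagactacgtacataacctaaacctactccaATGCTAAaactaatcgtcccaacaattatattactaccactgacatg
The table also lists 209 MTND pseudogenes, nuclear copies of mitochondrial genes. Their counts were 0.368% to 0.676% of the MT-ND counts in a library. The largest, MTND2P28 on chromosome 1, had a mean of 5983 counts in vehicle A and 3013 at the WESF high dose. It was thus lower in the same libraries as MT-ND2, a difference in raw counts that was not tested. These counts are not scaled for depth. The WESF high libraries held 20731749 to 24692309 counts in all, fewer than the 26447834 to 28461841 of vehicle A. MTND2P28 can share reads with MT-ND2, and their division is uncertain.

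**Figure D2:**
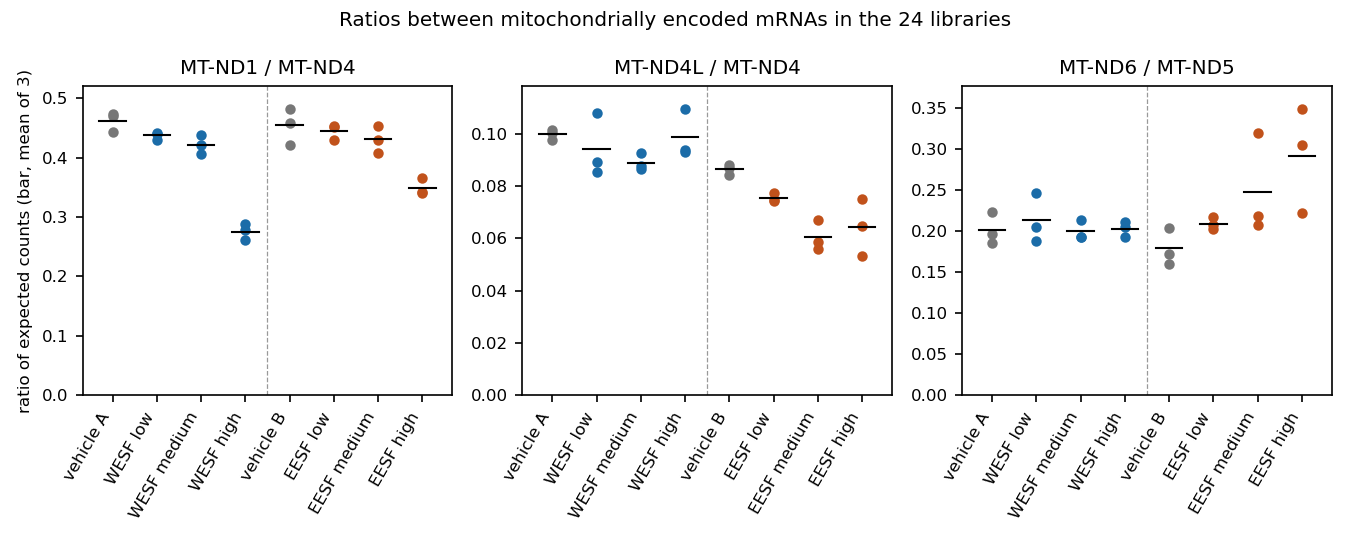
Ratio of expected counts of MT-ND1 to MT-ND4, MT-ND4L to MT-ND4 and MT-ND6 to MT-ND5 in each of the 24 libraries (points; bars are means of 3), by group, with batch A left and batch B right of the dashed line. MT-ND1 to MT-ND4 was 0.261 to 0.288 at the WESF high dose and 0.444 to 0.474 in vehicle A.

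The other 6 mitochondrially encoded mRNAs gave the wider picture. At the WESF high dose 5 of them fell, where 34.6% of all genes did so, and MT-CO2 was at -0.05 ± 0.07. The smallest adjusted p belonged to MT-ATP6, a subunit of ATP synthase (-0.42 ± 0.07, adjusted p = 4.68e-05), MT-CYB of complex III (-0.40 ± 0.07, adjusted p = 1.37e-04) and MT-CO1 of complex IV (-0.31 ± 0.06, adjusted p = 1.53e-04). At the EESF high dose MT-ATP8 of ATP synthase (0.49 ± 0.08, adjusted p = 1.49e-04) and MT-CO2 of complex IV (0.31 ± 0.05, adjusted p = 2.16e-04) rose, while MT-CO1 (-0.22 ± 0.06, adjusted p = 0.00553) and MT-CYB (-0.17 ± 0.05, adjusted p = 0.0132) fell. Over all 13 mitochondrially encoded mRNAs, 8 fell and 0 rose with WESF, and 4 fell and 4 rose with EESF. Of all genes, 34.6% fell and 34.3% rose with WESF, and 28.7% fell and 29.3% rose with EESF, so the EESF counts were near those of all genes. They made up 9.30% to 9.50% of the protein-coding counts in vehicle A and 6.95% to 8.70% at the WESF high dose, and 10.5% to 10.8% in vehicle B and 10.4% to 11.2% at the EESF high dose. In bulk samples fewer cells of a type and less RNA per cell cannot be told apart, nor can fewer mitochondria and less RNA in each.

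**Figure D3:**
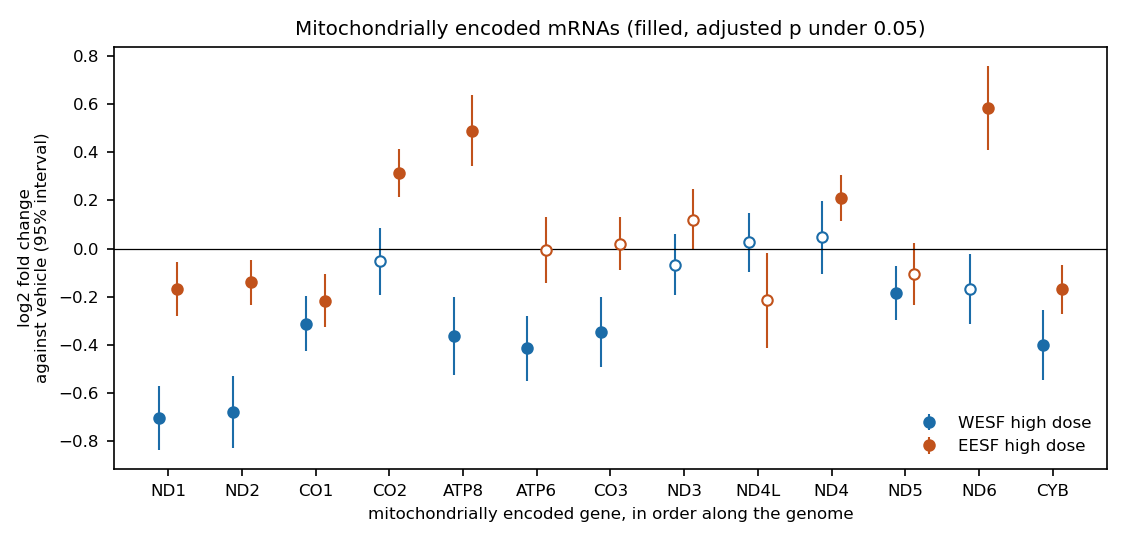
Log2 fold change of the 13 mitochondrially encoded mRNAs, in their order along the mitochondrial genome, at the high dose of WESF (blue) and EESF (orange). Points are fitted values from 3 against 3 libraries, bars are 95% intervals, and filled points passed the test. With WESF, MT-ND1 and MT-ND2 were lowest at -0.71 and -0.68, and MT-ND4 was at 0.05.

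The 7 nuclear core subunits had a median log2 fold change of -0.01 at the WESF high dose. NDUFS3, a Q-module subunit, fell (-0.17 ± 0.06, adjusted p = 0.0174), and its libraries overlapped vehicle A. That call ended without vehicle A replicate 1 (adjusted p = 0.0611) or WESF high replicate 3 (0.121). NDUFV1, the subunit that binds NADH and the flavin FMN, was at -0.01 ± 0.07, and NDUFS1, the largest core subunit, which holds iron-sulphur clusters, was at 0.10 ± 0.05 (adjusted p = 0.0814), with all WESF libraries above all vehicle libraries. NDUFS8 was at -0.02 ± 0.05, NDUFV2 within 0.01 of 0 and NDUFS7 at -0.11 ± 0.06 (adjusted p = 0.127). Without vehicle A replicate 3 NDUFS7 was at -0.18 and passed (0.0148), and without vehicle A replicate 1 it was at -0.05. NDUFS1 passed with thinned counts (0.0435). The 3 WESF libraries had 371 to 381 CPM summed over the 7 genes, inside the vehicle A range of 355 to 394 CPM.

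At the EESF high dose the core median was 0.19, and NDUFS8 and NDUFV2 rose. NDUFS8, a Q-module subunit with iron-sulphur clusters, had 66.6, 74.3 and 60.3 CPM in vehicle B and 68.4, 86.0 and 85.2 CPM after EESF. These overlapped, and the rise was 0.25 ± 0.09 on the log2 scale (adjusted p = 0.034). NDUFV2, an N-module subunit, had 44.2, 41.6 and 38.1 CPM against 44.4, 46.2 and 50.9 CPM, without overlap (0.19 ± 0.07, adjusted p = 0.0336). EESF high replicate 1 was the lowest of the treated libraries in both genes. Each of these calls ended when 1 of 4 of the 6 libraries was left out: NDUFS8 without vehicle B replicate 1 or 3 (adjusted p = 0.0767 and 0.157) or EESF high replicate 2 or 3 (0.155 and 0.115), and NDUFV2 without vehicle B replicate 2 or 3 (0.098 and 0.163) or EESF high replicate 2 or 3 (0.0647 and 0.155). The call of NDUFV2 also ended with all genes of the table (0.0518) and with thinned counts (0.0609). NDUFS7 (0.19 ± 0.08, adjusted p = 0.0562), NDUFV1 (0.05 ± 0.07), NDUFS1 (0.03 ± 0.07) and NDUFS3 (-0.10 ± 0.06) did not pass. NDUFS7 passed with all groups of the batch in the fit (0.0371) and without vehicle B replicate 1 (0.0381) or EESF high replicate 1 (0.00837).

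By count of calls, the accessory subunits, the largest class, made up most of the complex I genes that fell with WESF. At the high dose 19 of the 30 fell and 1 rose, beside 34.6% and 34.3% of all genes, with a median of -0.22. NDUFB1 (chr14:92116122-92121917, minus strand), a small membrane-arm subunit, had 21.4, 22.9 and 19.1 CPM in vehicle A and 14.5, 13.4 and 15.0 CPM after WESF. NDUFB10 (chr16:1959538-1961975), which lies at the outer face of the distal membrane arm, had 59.0, 60.5 and 53.7 CPM against 41.3, 39.3 and 39.6 CPM. Neither gene overlapped vehicle A, and they fell by 0.56 ± 0.08 (adjusted p = 5.08e-06) and 0.53 ± 0.05 (adjusted p = 1.55e-07). NDUFA9 (chr12:4649095-4694317), a Q-module subunit that binds NADPH, fell by 0.41 ± 0.07 (adjusted p = 3.25e-05), and NDUFB9, of the distal membrane arm, by 0.39 ± 0.06 (adjusted p = 1.28e-05). The exception was NDUFAB1 (chr16:23581014-23596316, minus strand), the mitochondrial acyl carrier protein, which also serves fatty acid and lipoate synthesis and is bound at more than a single place in the complex. It had 26.9, 24.7 and 21.9 CPM in vehicle A and 30.6, 30.8 and 31.7 CPM after WESF, without overlap, and rose by 0.34 ± 0.07 (adjusted p = 2.65e-04).

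Grouped by place in the complex, the distal membrane module had 9 of 12 nuclear subunits lower and 1 higher (NDUFAB1) at the WESF high dose, with a median of -0.29. The proximal membrane module had 5 of 9 lower (median -0.22), the Q module 3 of 6 (median -0.14) and the N module 3 of 10 (median -0.03). Of all genes 34.6% were lower at this dose, and the share in the N module was not above that. Whether the modules differ from each other was not tested. NDUFS5 and NDUFA2 did not pass, at -0.14 ± 0.06 (adjusted p = 0.0543) and -0.10 ± 0.08 (adjusted p = 0.285). NDUFS5 passed without the filter on low counts (0.0384) and without vehicle A replicate 3, where it was at -0.23 (4.25e-04), and NDUFA2 was at -0.02 without vehicle A replicate 1. NDUFA10, NDUFS4, NDUFB6 and NDUFA7 lay within 0.05 of 0 on the log2 scale.

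With the EESF high dose 7 of the 30 accessory subunits fell and 3 rose, beside 28.7% and 29.3% of all genes, and the median was -0.04. NDUFA9 had 44.1, 45.3 and 41.7 CPM in vehicle B and 34.3, 33.1 and 33.4 CPM after EESF. It fell without overlap by 0.38 ± 0.06 (adjusted p = 1.17e-04), NDUFB1 by 0.37 ± 0.07 (adjusted p = 5.28e-04), NDUFA5, a Q-module subunit, by 0.32 ± 0.05 (adjusted p = 2.53e-04) and NDUFB2 of the distal membrane arm by 0.32 ± 0.08 (adjusted p = 0.00319). NDUFA7 (chr19:8308768-8321375, minus strand), an N-module subunit, had 22.7, 19.8 and 18.7 CPM in vehicle B and 22.6, 31.4 and 28.9 CPM after EESF. EESF high replicate 1 lay inside the vehicle range and the other two far above it, and the fitted rise was 0.44 ± 0.11 (adjusted p = 0.00534). NDUFV3 (chr21:42879644-42913304), a small subunit of the NADH-oxidising tip, had 44.5, 47.4 and 45.3 CPM against 55.6, 59.9 and 61.4 CPM. It rose without overlap by 0.37 ± 0.06 (adjusted p = 2.15e-04), and NDUFAB1 rose by 0.29 ± 0.06 (adjusted p = 0.00153). NDUFS5 and NDUFA2 did not pass, at 0.16 ± 0.08 and 0.08 ± 0.08. NDUFS5 was at 0.22 and passed without EESF high replicate 1 (adjusted p = 0.0221) and was at 0.06 without vehicle B replicate 3, and NDUFA2 was at 0.17 without vehicle B replicate 1. Of the modules, the distal membrane module had 4 genes lower and 1 higher, the proximal membrane module 0 in either direction, the Q module 2 in each and the N module 1 lower and 3 higher, where 28.7% of all genes were lower and 29.3% higher. For the proximal module of 9 genes this is a count after adjustment, and the fold changes ran from -0.14 to 0.16.

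**Figure D4:**
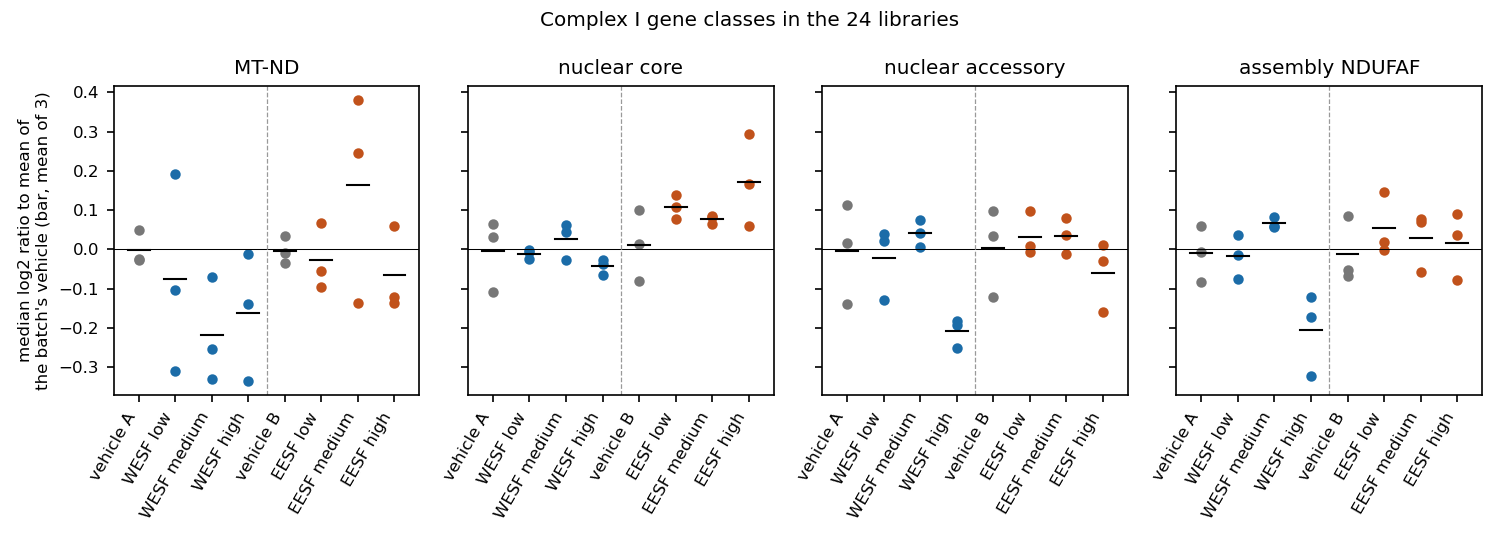
Median over the genes of each class of the log2 ratio of CPM to the mean of the batch's vehicle libraries, in each of the 24 libraries (points; bars are means of 3), by group. The 3 WESF high libraries lie at -0.25 to -0.18 for the accessory subunits and at -0.07 to -0.03 for the nuclear core subunits.

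Among the assembly factors, changes went in opposite directions in the same libraries. Changes in both directions were also common over all genes: 34.3% rose and 34.6% fell at the WESF high dose. At the EESF high dose 29.3% of all genes rose and 28.7% fell. NDUFAF2, a paralogue of NDUFA12 that holds its place on a late assembly intermediate, NDUFAF1, which works on the early membrane intermediate, and NDUFAF7, an arginine methyltransferase, rose at the WESF high dose. NDUFAF3, which acts on the early Q-module intermediate, NDUFAF5, an arginine hydroxylase acting on NDUFS7, NDUFAF6, which is needed early in assembly, and NDUFAF8, a partner of NDUFAF5, fell. The upstream stretches of NDUFAF2 and NDUFAF8 are shown because these were the nuclear genes with the largest rise and with the largest fall among the assembly factors with an entry in the RefSeq promoter table used. Each runs from 250 bases before to 50 bases after the annotated start (GRCh38.p14, RefSeq), NDUFAF2 at chr5:60944955-60945254 and NDUFAF8 at chr17:81239061-81239360, both on the plus strand. Capitals mark matches, on either strand, to CCAAT, to CCGGAAG (the core of ETS factors such as GABPA), to ATGGCGGC (YY1) and to GCATGCGC (NRF1).
NDUFAF2: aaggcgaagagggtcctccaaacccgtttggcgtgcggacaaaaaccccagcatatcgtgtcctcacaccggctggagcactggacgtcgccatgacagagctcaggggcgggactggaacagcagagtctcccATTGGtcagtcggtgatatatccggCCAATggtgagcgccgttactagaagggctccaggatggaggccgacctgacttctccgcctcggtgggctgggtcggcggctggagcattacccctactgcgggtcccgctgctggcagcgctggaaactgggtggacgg
NDUFAF8: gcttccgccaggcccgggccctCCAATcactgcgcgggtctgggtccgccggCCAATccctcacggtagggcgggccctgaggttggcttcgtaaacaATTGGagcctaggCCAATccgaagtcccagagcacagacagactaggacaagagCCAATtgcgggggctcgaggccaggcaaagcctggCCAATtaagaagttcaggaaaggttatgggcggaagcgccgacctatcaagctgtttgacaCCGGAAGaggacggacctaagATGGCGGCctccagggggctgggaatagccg
The stretch of NDUFAF2 holds CCAAT on each strand and no other of these letters, and that of NDUFAF8 holds CCAAT on both strands, CCGGAAG and ATGGCGGC. Of the 45 nuclear genes, 39 had an entry. ATGGCGGC was present in 25.6% of these and in 3% of all 35116 entries, GCATGCGC in 20.5% and 3.05%, CCGGAAG in 17.9% and 10.3%, and CCAAT in 30.8% and 34.6%. A match is a string of letters and not a bound site.

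NDUFAF2 (chr5:60945177-61154531) had 34.5, 30.3 and 28.5 CPM in vehicle A, 39.3, 34.7 and 37.5 CPM at the WESF high dose, 30.9, 31.2 and 27.9 CPM in vehicle B and 41.0, 49.5 and 52.7 CPM at the EESF high dose. All treated libraries were above their vehicle libraries, by a small margin with WESF and a wide margin with EESF. The rise was 0.26 ± 0.07 on the log2 scale with WESF (adjusted p = 0.00284) and 0.67 ± 0.09 with EESF (adjusted p = 4.43e-05), which is 19.5% and 59.2%. NDUFAF1 rose by 0.29 ± 0.07 with WESF (adjusted p = 0.00158) and 0.38 ± 0.09 with EESF (adjusted p = 0.00347). NDUFAF7 rose by 0.20 ± 0.08 with WESF (adjusted p = 0.0483), a call that ended without vehicle A replicate 3 (0.201), WESF high replicate 1 (0.218) or WESF high replicate 2 (0.0742), in DESeq2 (0.126), without the filter on low counts (0.0586), with all genes of the table (0.0552) and with thinned counts (0.0612). With EESF it was at 0.11 ± 0.08.

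NDUFAF6 (chr8:94895533-95116455) had 12.8, 13.1 and 12.1 CPM in vehicle A, 6.95, 7.98 and 9.11 CPM at the WESF high dose, 12.7, 13.5 and 12.3 CPM in vehicle B and 9.33, 10.1 and 9.80 CPM at the EESF high dose. The treated libraries were below the vehicle libraries in both batches. NDUFAF6 fell by 0.66 ± 0.10 (adjusted p = 9.36e-06) and by 0.40 ± 0.08 (adjusted p = 9.78e-04). NDUFAF8 (chr17:81239305-81241310) had 21.3, 20.4 and 19.8 CPM in vehicle A and 14.2, 14.3 and 14.2 CPM after WESF, a fall of 0.53 on the log2 scale ± 0.06 (log2 fold change -0.53, adjusted p = 1.19e-06). With EESF it went from 22.3, 18.2 and 18.4 CPM to 16.5, 16.1 and 17.7 CPM (log2 fold change -0.23 ± 0.08, adjusted p = 0.0357), still without overlap. That call ended without vehicle B replicate 1 (0.179), EESF high replicate 1 (0.0553) or EESF high replicate 2 (0.106) and in DESeq2 (0.0581). NDUFAF3 fell by 0.38 ± 0.07 with WESF (adjusted p = 2.40e-04) and was at -0.09 ± 0.07 with EESF. NDUFAF5 fell by 0.32 ± 0.12 with WESF (adjusted p = 0.0221), a call that ended without vehicle A replicate 1 (0.121), WESF high replicate 2 (0.0867) or WESF high replicate 3 (just above 0.05) and in DESeq2 (0.0525). NDUFAF4 did not pass with either extract, at -0.09 ± 0.08 and 0.11 ± 0.09. Without EESF high replicate 1 the EESF value of NDUFAF4 was 0.20 and passed (adjusted p = 0.0407).

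**Figure D5:**
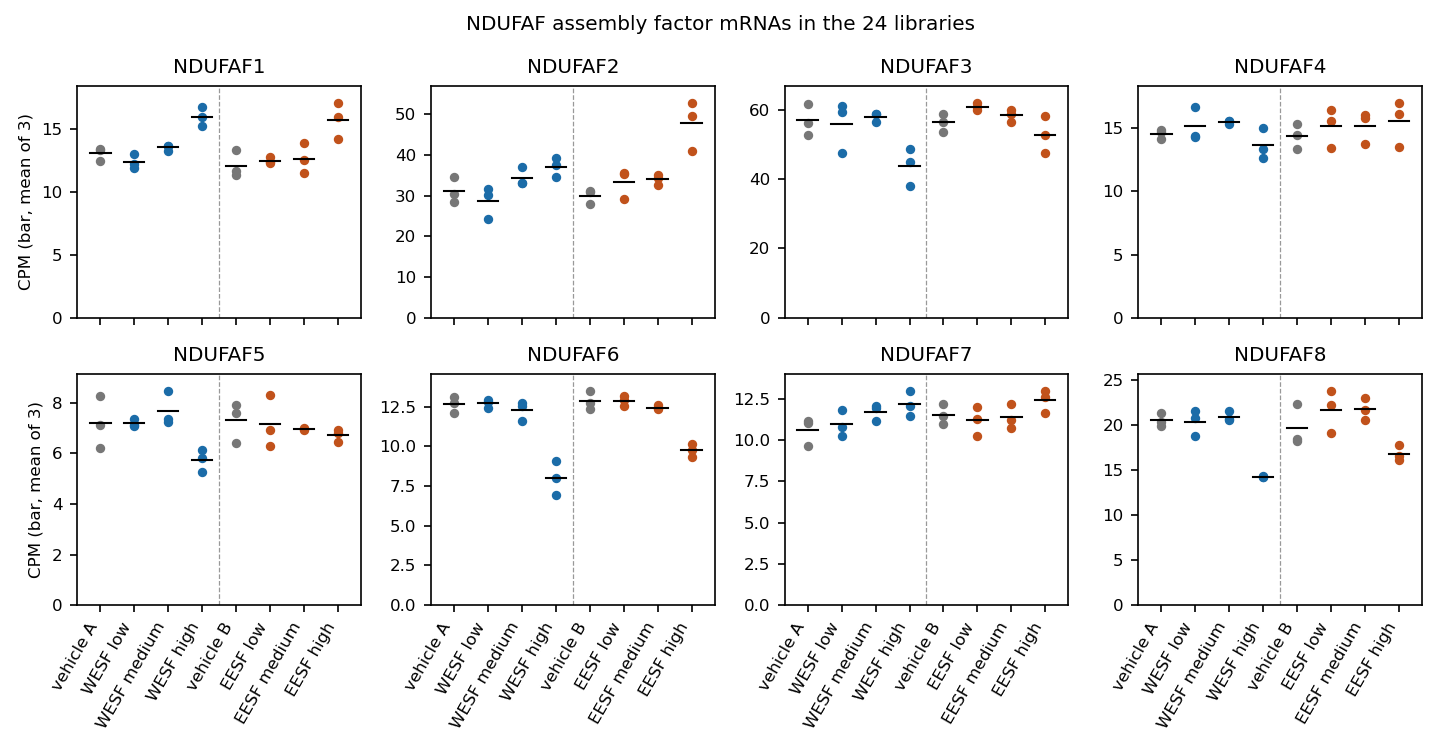
CPM of the 8 NDUFAF assembly factors in each of the 24 libraries (points; bars are means of 3), by group, with batch A left and batch B right of the dashed line. NDUFAF6 was at 6.95 to 9.11 CPM at the WESF high dose and 12.1 to 13.1 CPM in vehicle A, and NDUFAF2 reached 41.0 to 52.7 CPM at the EESF high dose.

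Of the 12 assembly factors with other names, 5 fell and 4 rose at the WESF high dose, where 34.6% and 34.3% of all genes did so, and the median was -0.12. At the EESF high dose 1 fell and 4 rose, beside 28.7% and 29.3% of all genes, with a median of 0.08. Except for the few that fell with EESF, these counts were near those shares. ACAD9, an acyl-CoA dehydrogenase relative that works in assembly together with NDUFAF1 and ECSIT, went from 28.3, 27.4 and 26.4 CPM in vehicle A to 18.2, 18.7 and 17.2 CPM after WESF (-0.60 ± 0.06, adjusted p = 1.31e-07). Its partner ECSIT was higher with both extracts, at 0.32 ± 0.06 (adjusted p = 2.78e-04) and 0.51 ± 0.07 (adjusted p = 9.23e-05). FOXRED1, needed for late assembly, rose by 0.43 ± 0.06 with WESF (adjusted p = 1.59e-05) and 0.44 ± 0.07 with EESF (adjusted p = 1.65e-04). DMAC2, a distal membrane assembly factor, fell by 0.32 ± 0.06 with WESF (adjusted p = 1.13e-04), and COA1 rose by 0.30 ± 0.05 with EESF (adjusted p = 2.32e-04). ACAD9 fell by 0.29 ± 0.07 with EESF (adjusted p = 0.00249), so NDUFAF1 and ECSIT were higher and ACAD9 lower at both high doses.

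At the lower doses few complex I genes passed. At the WESF medium dose 2 of 52 fell and 0 rose, against 2.20% and 1.89% of all genes. They were MT-ND2 (-0.24 ± 0.06, adjusted p = 0.0341) and MT-ND4L (-0.27 ± 0.07, adjusted p = 0.0385), and no nuclear gene passed. Leaving out single libraries gave 0 to 7 genes: 0 without vehicle A replicate 2 or 3 or WESF medium replicate 2 or 3, 6 without WESF medium replicate 1 and 7 without vehicle A replicate 1. At the WESF low dose 0 of the 52 passed, as 0% of all genes did in edgeR (470 of 13131 had an unadjusted p under 0.05), and 0 passed in DESeq2. The libraries of this group differed widely in their mitochondrial share, which was 10.4%, 9.05% and 7.51% of protein-coding counts.

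At the EESF medium dose 4 genes rose and 1 fell, against 6.90% and 8.48% of all genes. MT-ND6 had 1147, 1529 and 2335 CPM, beside 997 to 1205 CPM in vehicle B. Replicate 1 lay inside the vehicle range and replicate 3 was the highest of all 24 libraries. The fitted rise was 0.62 ± 0.16 (adjusted p = 0.016), which became 0.30 with an adjusted p of 0.0702 without EESF medium replicate 3 and also ended without vehicle B replicate 2 (0.0697) and in DESeq2 (0.187). MT-ND4 (0.25 ± 0.08, adjusted p = 0.0355), NDUFA7 (0.25 ± 0.08, adjusted p = 0.0461) and NDUFAF2 (0.18 ± 0.06, adjusted p = 0.0493) rose, and MT-ND4L fell by 0.28 ± 0.05 (adjusted p = 0.00172). Over single libraries left out, 1 gene passed without vehicle B replicate 2, 2 without EESF medium replicate 2 or 3, and 3 without vehicle B replicate 3. MT-ND4 and NDUFAF2 each lost their call without 5 of the 6 libraries and NDUFA7 without 4. At the EESF low dose 1 gene rose and 1 fell, against 3.11% and 6.24% of all genes: MT-ND6 (0.20 ± 0.05, adjusted p = 0.0372) and MT-ND4L (-0.22 ± 0.04, adjusted p = 0.00903). Without single libraries this count was 0 (vehicle B replicate 2 or EESF low replicate 1) to 5 (vehicle B replicate 1). It was 1 when vehicle B replicate 3 or EESF low replicate 2 or 3 was left out, and MT-ND6 kept its call only without vehicle B replicate 1. MT-ND4L was thus the complex I gene lower than vehicle B at the low and medium doses of EESF, and at the high dose it was at -0.22 ± 0.10 (adjusted p = 0.0843). Without EESF high replicate 1 the high-dose value of MT-ND4L was -0.37 (adjusted p = 1.96e-04), without EESF high replicate 3 it was -0.10 (0.308), and with all groups of the batch in the fit it passed (0.0438).

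The high dose was also set against the low dose within a batch, which leaves out the vehicle. For WESF 24 of the 52 genes were lower and 5 higher at the high dose, against 34.1% and 34.1% of all genes, and the accessory subunits had 18 lower and 2 higher. MT-ND1, MT-ND2, NDUFAF6, NDUFB1 and NDUFB10 were lower by this measure as well, at -0.60, -0.65, -0.67, -0.46 and -0.48. For EESF 14 genes were lower and 6 higher, against 28.4% and 28.7% of all genes. NDUFAF2 (0.52) and MT-ND6 (0.38) were higher and NDUFB10 (-0.41) and NDUFA9 (-0.40) lower. None of the nuclear core subunits passed in this comparison, where their median was 0.04.

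Which genes responded differently to the extracts was tested with an interaction term over 12 libraries. It takes the log2 fold change at the WESF high dose from that at the EESF high dose, each against its own vehicle. Of the 52 genes 7 were higher in this difference and 0 lower, against 12.7% and 13.3% of the 13376 genes tested. The median was 0.19, beside 0.02 for all genes. MT-ND6 differed by 0.755 (approximate 95% interval 0.49 to 1.02, adjusted p = 0.00122). MT-ND2 differed by 0.54 (0.33 to 0.75, adjusted p = 0.00192) and MT-ND1 by 0.54 (0.34 to 0.73, adjusted p = 0.00128). Of the nuclear genes, NDUFA7 differed by 0.48 (0.16 to 0.80, adjusted p = 0.0383), NDUFAF2 by 0.42 (0.17 to 0.66, adjusted p = 0.0226), NDUFAF8 by 0.30 (0.10 to 0.51, adjusted p = 0.0411) and NDUFV3 by 0.27 (0.14 to 0.41, adjusted p = 0.00994). No nuclear core gene passed, and NDUFS7 was closest at 0.31 (adjusted p = 0.0513), and NDUFS7 passed in alternatives such as no filter on low counts (0.0425) and all groups of the batch in the fit (0.0281). The number of genes higher ranged from 4 to 18 over single libraries left out: 18 without EESF high replicate 1, 14 without vehicle A replicate 3, 11 without vehicle B replicate 1, and 4 without vehicle A replicate 1, WESF high replicate 2, vehicle B replicate 3 or EESF high replicate 2 or 3. Extract, dose and batch cannot be told apart here. The doses were equal neither in µg/mL nor in the toxicity that the paper gives. At the medium and low doses 0 of the 52 genes passed in edgeR (27 of 13276 and 1 of 13221 genes did so, and 1735 and 1390 had an unadjusted p under 0.05).

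The vehicles themselves were compared as a measure of the batch. None of 13001 genes passed between vehicle B and vehicle A in edgeR (371 had an unadjusted p under 0.05). The MT-ND genes were higher in vehicle B by a median of 0.20, with 0.23 for MT-ND1, 0.18 for MT-ND2 and 0.26 for MT-ND4, and 5 of the 6 complex I genes with an unadjusted p under 0.05 were MT-ND genes. The nuclear core subunits had a median of -0.05.

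Among genes that make and maintain mitochondrial RNA and DNA, POLRMT, TFB1M and POLG were higher at both high doses. On the list of 13 measured genes of mitochondrial transcription and RNA handling, 5 rose and 5 fell at the WESF high dose, beside 34.3% and 34.6% of all genes, and 5 rose and 3 fell at the EESF high dose, beside 29.3% and 28.7%. These counts were near the shares over all genes, and the list medians were 5.23e-04 and -0.02. POLRMT, the mitochondrial RNA polymerase, went from 40.2, 39.5 and 39.8 CPM in vehicle A to 82.4, 84.5 and 80.1 CPM after WESF, and from 40.4, 38.3 and 38.0 CPM in vehicle B to 61.5, 76.5 and 73.1 CPM after EESF. Its log2 fold changes were 1.05 ± 0.05 (adjusted p = 5.07e-12) and 0.86 ± 0.08 (adjusted p = 2.41e-06). TFB1M, which methylates the small mitochondrial ribosomal RNA, rose by 1.40 ± 0.07 (adjusted p = 2.28e-11) and 1.15 ± 0.12 (adjusted p = 7.56e-06). SUPV3L1, a helicase of mitochondrial RNA decay, rose by 0.44 ± 0.05 with WESF (adjusted p = 1.40e-06). TFAM, which packages mitochondrial DNA and starts its transcription, was lower with EESF (-0.39 ± 0.06, adjusted p = 8.65e-05) and with WESF (-0.41 ± 0.05, adjusted p = 1.68e-06).

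Of the 7 genes of mitochondrial DNA replication 3 rose and 4 fell with WESF (34.3% and 34.6% of all genes did so) and 3 rose and 2 fell with EESF (29.3% and 28.7% of all genes), with medians of -0.17 and -0.02. The 3 with the smallest adjusted p were the same with both extracts: POLG, the DNA polymerase (1.40 ± 0.05 and 1.10 ± 0.06, adjusted p = 4.78e-13 and 7.70e-08), its accessory subunit POLG2 (0.76 ± 0.08 and 0.58 ± 0.09, adjusted p = 1.46e-07 and 9.71e-05) and the helicase TWNK (0.66 ± 0.06 and 0.51 ± 0.07, adjusted p = 1.00e-07 and 9.04e-05). Of 9 regulators of mitochondrial biogenesis 5 rose and 1 fell with WESF, beside 34.3% and 34.6% of all genes, and 4 rose and 2 fell with EESF, beside 29.3% and 28.7%. The medians were 0.18 and 0.12. PPARGC1A, the coactivator PGC-1α, had 2.69, 2.82 and 2.84 CPM in vehicle A and 0.127, 0.542 and 0.307 CPM after WESF, and 2.11, 2.40 and 2.79 CPM in vehicle B and 0.353, 0.192 and 0.432 CPM after EESF. This low gene fell by 3.12 ± 0.29 (adjusted p = 4.91e-08) and 2.89 ± 0.27 (adjusted p = 2.66e-06). ESRRA, a nuclear receptor that PGC-1α activates, rose by 0.54 ± 0.08 (adjusted p = 9.83e-06) and 0.55 ± 0.08 (adjusted p = 8.08e-05). The related coactivator PPRC1 rose by 0.33 ± 0.05 with WESF (adjusted p = 8.86e-06), and GABPA, an ETS factor of respiratory gene promoters, fell by 0.37 ± 0.07 with EESF (adjusted p = 8.04e-04).

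Other enzymes also pass electrons to ubiquinone. Of the 9 such genes tested of 11 listed, 5 rose and 2 fell with each extract at its high dose, where 34.3% and 34.6% of all genes did so with WESF and 29.3% and 28.7% with EESF. The medians were 0.23 and 0.24. SDHA, the flavoprotein of complex II, had 117, 112 and 110 CPM in vehicle A and 171, 181 and 166 CPM after WESF. It rose without overlap by 0.61 ± 0.05 (adjusted p = 3.44e-09), and its rise at the EESF high dose was 0.47 ± 0.05 (adjusted p = 7.87e-06). SQOR, which oxidises hydrogen sulphide, rose by 1.36 ± 0.13 (adjusted p = 1.03e-07) and 0.78 ± 0.14 (adjusted p = 3.85e-04). GPD2, the mitochondrial glycerol-3-phosphate dehydrogenase, fell by 0.53 ± 0.07 (adjusted p = 2.57e-06) and 0.75 ± 0.07 (adjusted p = 2.18e-06).

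Levels between genes were compared as CPM per kilobase of a single annotated transcript per gene, in vehicle A. The MT-ND genes were at 1999 (MT-ND6) to 10561 (MT-ND4). The highest nuclear gene was NDUFS5, an accessory subunit of the membrane arm, at 193, followed by NDUFB11 at 124 and NDUFB2 at 122. The assembly factors ran from 1.32 (NDUFAF5) to 63.2 (NDUFAF3). NDUFS1 (5.57) and NDUFA9 (5.41) are low on this scale through annotated transcripts of 11660 and 8356 bases, and a shorter transcript in use would place them higher. Transcript length was weakly related to the change of the 45 nuclear genes at the WESF high dose (Spearman's rho across genes 0.24, and -0.02 over all 13129 genes) and at the EESF high dose (0.02, and -0.30 over all genes); genes are not independent replicates. The 63 NDUF pseudogenes in the table held 0.110% to 0.213% of the NDUF counts in a library.

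Of the 3 name matches outside complex I, NDUFA4, which is counted as a complex IV subunit, fell with both extracts, by 0.18 ± 0.07 at the WESF high dose (adjusted p = 0.0239) and by 0.33 ± 0.08 at the EESF high dose (adjusted p = 0.00354). NDUFA4L2, its hypoxia-inducible paralogue, was at 0.676 CPM per kilobase in vehicle A and did not pass (0.26 ± 0.28 and 0.16 ± 0.33). NDUFC2-KCTD14, which shares exons with NDUFC2, was too low to be tested at the WESF high dose and was at -0.08 ± 0.80 at the EESF high dose.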

How the data were processed

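RNA of SW1783 cells from 8 groups of 3 libraries was sequenced. The authors trimmed reads with Trim Galore 0.6.6, aligned them with STAR 2.7.9a to GRCh38 (written with hg19 beside it in the methods) and counted genes with RSEM 1.3.3, and they deposited expected counts per gene without normalization. RSEM divides shared reads, and 10.9% of the values are not whole. Counts were rounded here, protein-coding genes of GENCODE kept by filterByExpr were tested with edgeR 4.0.16 (TMM, quasi-likelihood test, 2-sided, each comparison on its own 6 libraries, 12 for the difference between extracts), and p-values were adjusted over all genes tested. SE is the log2 fold change over the square root of F. CPM were scaled with TMM over all 24 libraries. The steps were tested on simulated data. Members, gene lists and tests were chosen with earlier results of these data known. All MT-ND, nuclear core and NDUFAF genes are named (a nuclear core gene is counted in the totals but not reported here), the study's own named subunits, the 4 largest accessory changes in each direction that passed at each high dose, every DEG and every gene passing the difference, and of other lists the 3 with the smallest adjusted p at each high dose. NDUFA10, NDUFS4, NDUFB6, MTND2P28, ECSIT with WESF, ACAD9 and MT-CYB with EESF and MT-CO2 with WESF were named after their values were seen. Alternatives were DESeq2 1.42.0, its size factors, no filter, all genes, thinned counts, all groups of a batch, nuclear normalization, a replicate block and each library left out. Depth limits precision through counting error, smallest for the MT-ND genes.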

Additional observations from a re-analysis of the deposited data

Results flagged for a closer look

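Of the 52 complex I genes, 7 responded differently to EESF and WESF at the high dose by an interaction term (edgeR), and in all 7 the log2 fold change was higher for EESF. Of all 13376 genes tested, 12.7% were higher in this difference and 13.3% lower, so a count of 7 is near the share of all genes. The change with EESF minus that with WESF was 0.755 for MT-ND6, 0.54 for MT-ND2, 0.54 for MT-ND1, 0.48 for NDUFA7, 0.42 for NDUFAF2, 0.30 for NDUFAF8 and 0.27 for NDUFV3, on the log2 scale. MT-ND6 and NDUFA7 rose with EESF and did not pass with WESF, NDUFAF2 rose with both, MT-ND1, MT-ND2 and NDUFAF8 fell with both (their EESF calls ended under several alternatives), and NDUFV3 rose with EESF alone at this threshold. Extract, dose and batch cannot be told apart. The highest adjusted p over the 20 alternatives was 0.0172 for MT-ND6, 0.0223 for MT-ND2, 0.0125 for MT-ND1 and 0.0312 for NDUFV3, and it was 0.114 for NDUFA7, 0.0663 for NDUFAF2 and 0.123 for NDUFAF8.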

How the results depend on the processing

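Of 3432 values of 33 genes under the alternatives, 3161 counted as the same, with the side of the threshold kept. Of the others 122 no longer passed, 70 passed anew, 79 moved by over the spread and 0 counted as reversed. Values near 0 could change sign and still count as the same or as moved. NDUFS8 at the WESF high dose, at -0.02, reached 0.00557 with a single library left out and counted as the same in all 14 alternatives. The WESF medium count of 2 genes became 4 without the filter on low counts, 1 with all genes of the table, 0 with all groups of the batch in the fit and 1 with the replicate block. The 11 genes lower at the EESF high dose became 7 with the replicate block. The EESF medium count of 5 became 2 in DESeq2, 3 with DESeq2 size factors, 2 with all genes of the table, 3 with all groups of the batch and 3 with normalization on nuclear genes, and it became 7 without the filter, where MT-ND2 and MT-ND3 passed as well (adjusted p = 0.043 and 0.0377). The EESF low count of 2 became 0 with all groups of the batch, and the 7 genes higher in the difference between extracts became 13. The cause of these shifts was not tested. Without single libraries, the WESF high dose gave 3 to 5 genes higher and 23 to 31 lower, the WESF medium dose 0 to 7, the WESF low dose 0 to 0, the EESF high dose 7 to 13 higher and 8 to 12 lower, the EESF medium dose 1 to 6, the EESF low dose 0 to 5 and the difference 4 to 18 higher and 0 to 1 lower. Over all genes, deviations of libraries with the same replicate number correlated at -0.08 to 0.08, which does not settle pairing for these genes alone. The accessory-subunit medians fell from replicate 1 to 3 in vehicle A (0.11, 0.02 and -0.14) and vehicle B (0.10, 0.03 and -0.12). They did so too at the WESF low, EESF low and EESF medium doses, but not at the WESF medium, WESF high or EESF high dose. With the replicate block the WESF high dose gave 4 higher and 28 lower, the EESF high dose 9 higher and the difference 5 higher. The block ended the EESF high calls of MT-ND1 (0.0641), MT-ND2 (0.0826), NDUFAF8 (0.06) and NDUFV2 (0.0812) and the WESF medium call of MT-ND4L (0.0538), and MT-ND6 passed at the WESF high dose (0.0101; all adjusted p). At the EESF medium dose the call of NDUFAF2 was lost in 11 of 14 alternatives, of NDUFA7 in 9 and of MT-ND4 in 7, and MT-ND4L at the WESF medium dose in 8.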
